A study of Mus musculus with 2 samples.

Results

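The cytosolic ribosomal protein genes encode the proteins of the large (Rpl, Rplp) and small (Rps, Rpsa) subunits of the ribosome that translates nuclear mRNA. They were chosen by gene symbol alone. The symbols were Rpl or Rps and a number, alone or followed by a, l or x, by 1, or by such a letter and 1. Rplp0, Rplp1, Rplp2 and Rpsa were included, and pseudogenes marked -ps and the S6 kinases were left out. This gave 84 genes of the 24411 in the data, 51 of the large and 33 of the small subunit, and 103 of 35034 transcripts, since 73 genes had 1 transcript listed and 11 had several. A cytosolic ribosome carries a single copy of nearly every one of these proteins, apart from the paired P1 and P2 proteins of the stalk. Their mRNAs are short, stable and abundant, and many begin with an unbroken stretch of C and T, the terminal oligopyrimidine tract, through which mTOR signalling and the RNA-binding protein Larp1 set their translation. In sensory neurons, ribosomes serve the cell body and, at a distance from it, the axon.

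RNA-seq was available from the dorsal root ganglion (DRG) neurons of male C57BL/6J mice, as 1 library for mice injected with alum and 1 for mice immunized with alum + KLH. The mice were 6 to 8 weeks old when purchased, and their age at harvest is not stated. Both groups received 50% alum, an aluminium adjuvant, in 200 µl of saline into the peritoneum on days 0 and 14, and only the second group received with it 100 µg of keyhole limpet hemocyanin (KLH), a mollusc protein used as a foreign antigen. Neurons of the thoracic and lumbar ganglia were taken on day 28, pooled from 10 mice a group, separated on an albumin cushion and depleted of B lymphocytes. The deposited label of the control library calls it naïve and alum alone at once, and it is treated here as alum-injected, as in the study's methods.

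With 1 pooled library a group there was no spread between mice, no test was made, and no difference given here has a replicate check. Values are TPM, in which reads are divided by transcript length and each library is scaled to a sum of 1000000, so that levels of different genes can be compared per length. The study's methods give a minimum read depth for each sample. No read counts come with the deposited values, so the reads behind each value are unknown. TPM was summed over the transcripts of a gene, and a gene above 3 TPM was taken as detected. The log2 ratio is that of (TPM + 1) in the alum + KLH pool over (TPM + 1) in the alum pool, which understates the difference of low genes.

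All 11 neuronal marker genes were above 3 TPM, with a summed level of 17813 TPM in the alum pool and 17590 TPM in the alum + KLH pool. Glial genes were present too, with 8 of 11 Schwann cell markers (2223 and 2182 TPM in sum) and 8 of 8 satellite glia markers (1630 and 1509 TPM) above 3 TPM. Of 12 macrophage markers 2 passed this level (15.6 and 15.1 TPM in sum) and of 6 fibroblast markers 3 (88.1 and 88.4 TPM). Of 7 endothelial markers 1 passed it, and all 7 were lower in the alum + KLH pool, with sums of 13.0 and 9.12 TPM. None of 6 B lymphocyte markers did, with Cd79b and Blk at 0 in both pools and sums of 1.55 and 0.999 TPM. Red blood cell markers were low but unequal, with 2 of 8 above 3 TPM and a sum of 10.3 TPM in the alum pool against 3.07 TPM in the alum + KLH pool. The part of any of these cells in the differences below was not tested, and fewer cells of a type cannot be told apart from less RNA per cell in pooled RNA.

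Ribosomal protein mRNA was a small share of the libraries. The 84 genes summed to 18143 TPM, or 1.81% of the library, in the alum pool and to 17288 TPM, or 1.73%, in the alum + KLH pool, a log2 ratio of -0.07. The large subunit contributed 11218 and 10758 TPM and the small subunit 6925 and 6530 TPM. Detection above 3 TPM was reached by 80 genes in at least one pool, 48 of the large and 32 of the small subunit, and by 78 in both. The median of the 80 was 146 TPM in the alum pool and 125 TPM in the alum + KLH pool, against 24.2 and 23.5 TPM for all genes above 3 TPM. Only 1 of them was among the 100 most abundant genes of either pool.

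Levels of the 80 detected genes were unequal although the ribosome holds most of their products in near-equal numbers. The 80 include the paralogues Rpl22l1, Rpl7l1 and Rps27l, and also Rps27 and Rpl30, which share sequence with abundant copies described further on. Their means of the pools spanned 769-fold, from Rpl39 at 1351 TPM to Rpl36 at 1.76 TPM, which passed 3 TPM in the alum pool only. Among genes above 3 TPM in both pools, the lowest mean was that of Rpl18 at 5.28 TPM. The lower and upper quartiles were 55.0 and 337 TPM in the alum pool and 43.9 and 315 TPM in the alum + KLH pool. The 10 most abundant made up 39.7% and 42.1% of the summed level. The order was much the same in both pools (Spearman correlation 0.981 across the 80 genes, which share their 2 libraries and are not replicates).

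**Figure D1:**
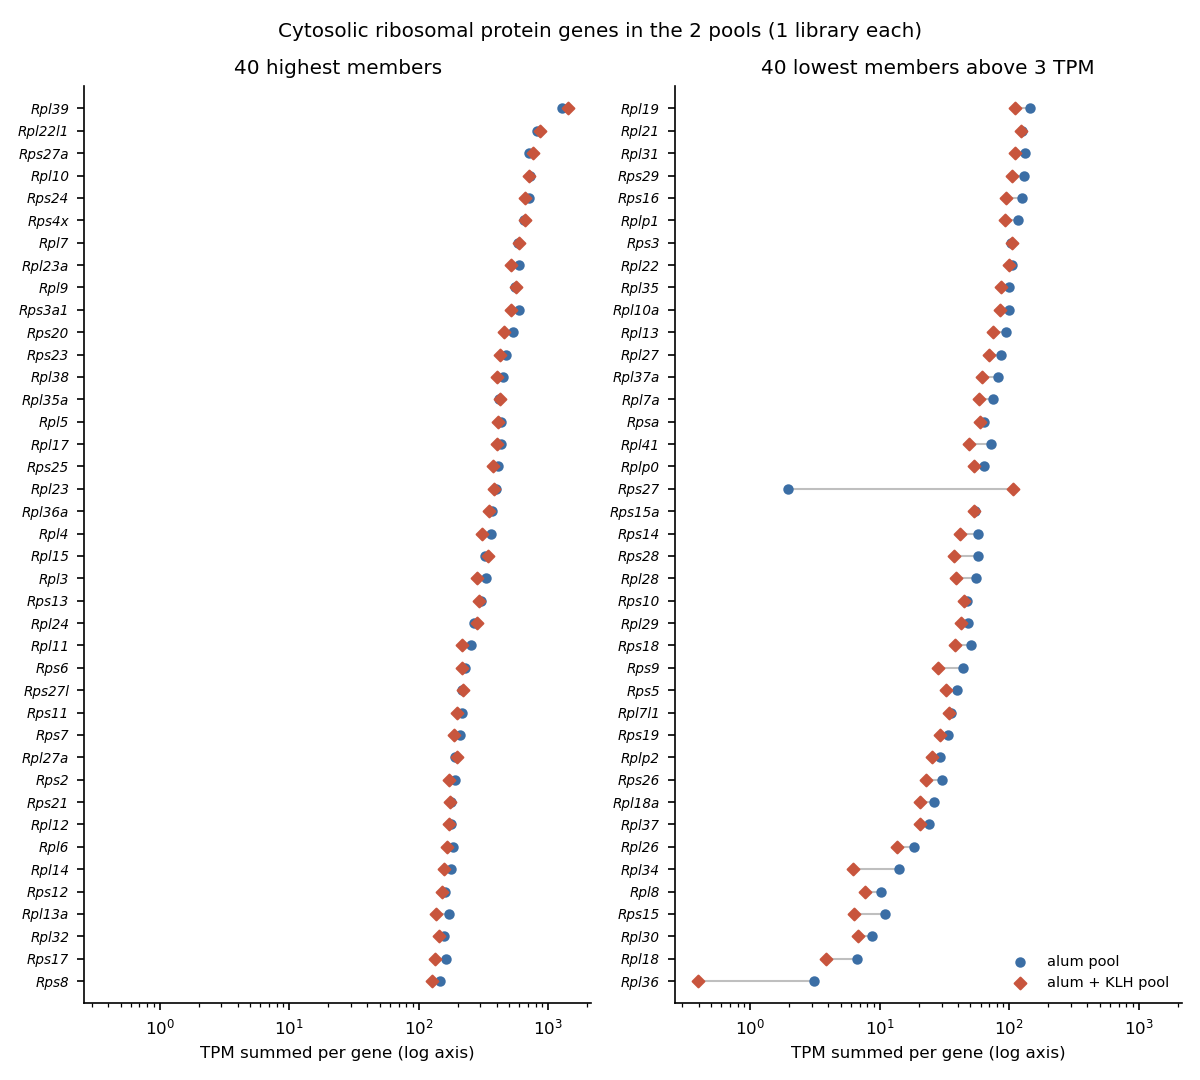
TPM summed per gene (horizontal log axis) of the 80 cytosolic ribosomal protein genes above 3 TPM, ordered by mean, with a blue circle for the alum pool and a red diamond for the alum + KLH pool, 1 library each. Most pairs nearly touch, the red diamond is the lower of the pair for 67 genes, and Rps27 and Rpl36 show the widest gaps.

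The highest member was Rpl39, a very short protein in the wall of the tunnel through which the new peptide leaves the large subunit. It was at 1274 TPM in the alum pool and 1429 TPM in the alum + KLH pool. Next came Rpl22l1, a paralogue of Rpl22, at 825 and 870 TPM. Rps27a, which is made as a fusion with ubiquitin, was at 706 and 757 TPM. These 3 genes were each somewhat higher in the alum + KLH pool, with log2 ratios of 0.17, 0.08 and 0.10, the second of which turned to -0.01 when TPM was taken relative to Hprt. Rpl10, a protein that joins the large subunit late in its maturation, was at 724 and 706 TPM, and Rps24 of the small subunit at 713 and 659 TPM.

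At the other end, Rpl36 of the large subunit was at 3.12 TPM in the alum pool and 0.393 TPM in the alum + KLH pool, and Rpl18 was at 6.69 and 3.87 TPM. Rpl30 stood at 8.76 and 6.81 TPM and Rpl8, a protein near the peptidyl transferase centre, at 10.3 and 7.72 TPM. Values this low, for proteins that every cytosolic ribosome contains, were 100 times and more below that of Rpl39, and for Rpl30 a gene that shares part of its sequence, described further on, had a far higher value. The 4 members below 3 TPM in both pools were all paralogues with an l in the symbol.

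Paralogues differed widely in level from the genes they resemble. Rpl22l1 stood above its relative, at 7.89 times the level of Rpl22 in the alum pool (825 against 105 TPM) and 8.79 times in the alum + KLH pool (870 against 99.0 TPM). Rpl7l1 reached 35.5 and 34.1 TPM, far below Rpl7 at 582 and 597 TPM. Rpl10l, known from the male germ line, was at 0 in both pools beside Rpl10 at 724 and 706 TPM. Rpl3l, a form of striated muscle, was at 0.067 and 0.116 TPM beside Rpl3 at 328 and 283 TPM. Rpl39l, known from testis, was at 0.814 and 0.157 TPM. Rps4l was at 1.65 and 1.82 TPM beside its X-linked relative Rps4x at 647 and 660 TPM. Rps27l, a paralogue of Rps27 that responds to p53, was at 217 and 220 TPM, above Rps27 in both pools, but the value of Rps27 is uncertain for the reason given further on.

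The stalk of the large subunit, which recruits translation factors, is built from Rplp0 and pairs of Rplp1 and Rplp2. In the alum pool Rplp1 was the highest at 116 TPM, followed by Rplp0 at 63.4 TPM and Rplp2 at 29.1 TPM. In the alum + KLH pool the order was kept at 92.2, 53.4 and 25.2 TPM. The log2 ratios were -0.33, -0.24 and -0.20. Rpsa, a protein of the small subunit also known as a laminin receptor, was at 63.4 and 59.2 TPM, with a ratio of -0.10.

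Some members are studied for roles beyond structure. Rps6, the small-subunit protein phosphorylated by the S6 kinases, was at 228 TPM in the alum pool and 215 TPM in the alum + KLH pool. Rpl5 and Rpl11, which carry 5S rRNA and can bind Mdm2, were at 432 and 409 TPM and at 253 and 218 TPM. All 3 were lower in the alum + KLH pool, by log2 ratios of -0.09, -0.08 and -0.22. So were 83.75% of the detected members and 56.4% of all genes above 3 TPM, so the direction is not particular to these 3. These 3 genes were chosen for their roles after their values had been seen.

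The 5′ ends of the genes were examined for the pyrimidine stretch that marks this class of mRNA. RefSeq promoter sequences (GRCm38.p6, 250 bases before and 50 after an annotated start) were matched for 63 of the 84 genes. Shown are 60 bases, from 40 before the start to 20 from it onwards, on the strand of the gene, for Rpl27a, Rpl34 and Rpl15 as members with a long stretch, for Rps6 and Rplp2 as members named for their roles, for Rpl39 as the most abundant and for Rps28 and Rpl41 as members with low ratios between the pools and no such stretch. Capitals mark the longest run of C and T near the start where it has at least 8 bases.
Rpl27a, chr7:109519155-109519214, plus strand: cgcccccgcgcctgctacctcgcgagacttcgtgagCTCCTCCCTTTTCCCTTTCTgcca
Rpl34, chr3:130730318-130730377, minus strand: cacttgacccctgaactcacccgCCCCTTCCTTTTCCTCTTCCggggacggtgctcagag
Rpl15, chr14:18270967-18271026, minus strand: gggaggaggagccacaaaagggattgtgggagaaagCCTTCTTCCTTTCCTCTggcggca
Rps6, chr4:86857348-86857407, minus strand: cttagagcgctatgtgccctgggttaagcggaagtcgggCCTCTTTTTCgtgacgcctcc
Rplp2, chr7:141447611-141447670, plus strand: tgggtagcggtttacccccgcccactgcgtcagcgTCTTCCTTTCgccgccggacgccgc
Rpl39, chrX:37085203-37085262, minus strand: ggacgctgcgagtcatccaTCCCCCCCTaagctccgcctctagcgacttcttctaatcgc
Rps28, chr17:33824543-33824602, minus strand: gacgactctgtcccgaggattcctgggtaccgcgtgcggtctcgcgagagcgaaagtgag
Rpl41, chr10:128549149-128549208, minus strand: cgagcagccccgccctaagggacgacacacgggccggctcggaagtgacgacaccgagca

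In Rpl27a, Rpl34, Rpl15, Rps6 and Rplp2 the run spans the annotated start, while in Rpl39 it lies wholly before it. Rpl34 has a further annotated start with its own window. A run of at least 8 C or T within the 20 bases on either side of a start was present in 30 of the 63 genes (47.6%), against 18.3% of 26962 other genes. By window, it was in 31 of the members' 75 (41.3%) and in 16.05% of all 32851. These counts include runs that lie wholly before the annotated start, as in Rpl39, Rpl5 and Rps25. They are therefore not shares of mRNAs that begin with such a run. The other genes were not limited to those detected here, while 60 of the 63 members were above 3 TPM. A run of at least 12 was present in 12 genes (19.0%, others 4.33%). Starts at a C followed by at least 4 C or T were found in 13 (20.6%, others 2.97%).

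Other letters were searched on both strands of the whole 300-base window. CCGGAAG, a core bound by Ets-family factors, was present in 26 of 63 genes (41.3%, other genes 9.85%, all windows 8.86%), and GGGCGG, an Sp1-type box, in 39 (61.9%, others 38.1%, all windows 35.7%). AAGATGGC, the core of YY1 sites, was in 6 (9.52%, others 3.17%, all windows 2.75%). CACGTG, the E-box read by Myc, was in 6 (9.52%, others 8.09%, all windows 7.15%), and TATAAA in 7 (11.1%, others 15.7%, all windows 13.6%). Read on the opposite strand, CCGGAAG becomes CTTCCGG and can run into a pyrimidine stretch, as it does at the end of the one printed for Rpl34, so these counts are not independent. The other genes again include genes not detected here, and the shares of all windows count windows, not genes. A match is a description, not a bound site.

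Between the pools, most members were a little lower after immunization with KLH. Of the 80 detected genes 67 were lower in the alum + KLH pool (83.75%, against 56.4% of all 11648 genes above 3 TPM) and 13 were higher. The median log2 ratio was -0.18 for the members, -0.20 for the large and -0.14 for the small subunit, and -0.02 for all genes above 3 TPM. With TPM rescaled by the median ratio of all genes (a shift of 0.02 on the log2 scale) 64 were lower and 16 higher. Relative to Hprt (a shift of -0.08) 77 were lower and 3, Rpl39, Rps27 and Rps27a, were higher. Such shifts move all genes, and the shares of all genes lower under these scalings were not computed. The 56.4% holds only for the values as deposited. Without the 15 members that share at least 25% of their sequence words with other listed transcripts, 54 of 65 were lower.

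A limit of 20% lower or 25% higher in TPM + 1, which is the same size of log2 ratio in both directions, was used to count larger differences. At least 20% lower were 21 of the 80 members (26.25%), 14 of the large and 7 of the small subunit, where 5.39% of all genes above 3 TPM were that much lower. At least 25% higher was 1 member, Rps27, beside 2.29% of all genes. Only Rpl34 and Rpl36 were at least 2-fold lower, with 0.944% of all genes that far down, and only Rps27 was 2-fold higher, with 0.695% of all genes that far up. Of these, Rpl36 passed 3 TPM in the alum pool only and Rps27 in the alum + KLH pool only. Among genes that exceeded 100 TPM in either pool, 4 of 50 members (Rpl13a, Rpl19, Rplp1 and Rps16) were at least 20% lower beside 1.64% of all such genes, and 37 of 50 were lower by any amount beside 43.8%. In this class 1 member was at least 25% higher (1% of all such genes) and at least 2-fold higher (0.0909%), and 0 were at least 2-fold lower (0.182%). That member, Rps27, exceeded 100 TPM in the alum + KLH pool only, and Rplp1 and Rps16 did so in the alum pool only. A gene that passes through its higher pool alone is more likely to be counted as different, among members and all genes alike.

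**Figure D2:**
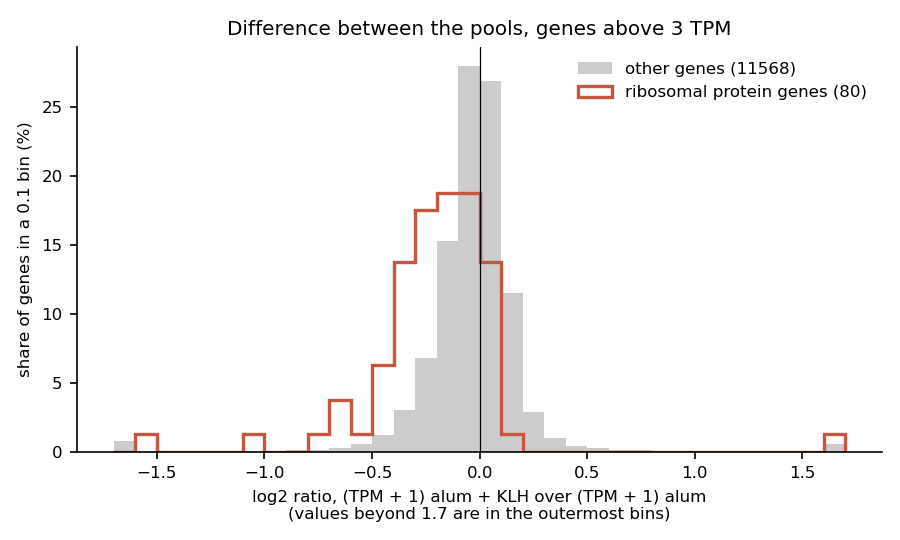
Share of genes (vertical axis, %) in bins of 0.1 of the log2 ratio of alum + KLH over alum (horizontal axis), for the 80 ribosomal protein genes above 3 TPM (red outline) and the 11568 other genes above 3 TPM (grey). The red outline lies to the left of the grey, with a median of -0.18, and the single red bin at the right edge is Rps27.

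Outside Rps27 and Rpl36, the members above 10 TPM with the lowest ratios came from both subunits. Rpl34 of the large subunit was at 14.1 TPM in the alum pool and 6.17 TPM in the alum + KLH pool, a log2 ratio of -1.08. Rps15, a protein near the decoding site of the small subunit, was at 11.0 and 6.31 TPM (-0.71), and Rps9 at 44.1 and 28.2 TPM (-0.63). Rps28 was at 57.6 and 37.2 TPM (-0.62). Rpl41, with 78 bases the shortest coding sequence of the family, was at 72.9 and 49.3 TPM (-0.55). The SD of the log2 ratio over all genes describes how far genes differed between these 2 libraries and not the spread between mice. It was 0.52 at means of 3 to 10 TPM, where Rps15 falls, and 0.27 at 10 to 100 TPM. Each of these 5 ratios was larger in size than the SD of its class. The 5 were picked as the lowest ratios, so this follows largely from the choice and lends them no support.

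Higher values were small apart from Rps27. After Rpl39, Rps27a and Rpl22l1, the largest was that of Rpl15, at 324 and 341 TPM with a log2 ratio of 0.08, which turned to -0.01 relative to Hprt. The 13 higher members all had means above 50 TPM. By abundance, the members' median ratio was -0.51 for the 4 genes with means of 3 to 10 TPM. It was -0.31 for the 27 between 10 and 100 TPM and -0.11 for the 48 above 100 TPM. The medians of all genes in these classes were -0.06, -0.02 and 0.01. Rpl36, with a mean of 1.76 TPM, falls in none of the classes.

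Both the level and the ratio of the members followed the share of G and C in their coding sequence. Coding sequences came from GENCODE M21 (GRCm38), with a median length of 459 bases in the members against 1317 bases in all genes above 3 TPM and a median GC content of 52.3% against 51.5%. Across the 80 members, GC content and log2 ratio had a Spearman correlation of -0.61 and a Pearson correlation of -0.26 (-0.56 without Rps27), and GC content and mean TPM a Spearman correlation of -0.66. Across 10740 other genes the corresponding Spearman correlations were -0.37 and -0.35. Mean TPM and log2 ratio had a Spearman correlation of 0.65 across the 80 members and 0.18 across 11568 other genes. The parts of level and GC content in the ratio were not separated. The genes of each set share the same 2 libraries, and the values are a description.

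In the tertile of the members with the lowest GC content (39.6 to 50.3%) the median level was 419 TPM in the alum pool and 402 TPM in the alum + KLH pool, the median log2 ratio was -0.08, and 0 of 27 were at least 20% lower. In the middle tertile it was 169 and 154 TPM, with a ratio of -0.15 and 4 of 26. In the tertile with the highest GC content (54.2 to 61.3%) the median level was 55.1 and 41.4 TPM, the ratio was -0.34, all 27 genes were lower and 17 were at least 20% lower. Other genes in the same GC ranges moved in the same order, with medians of 0.02, -0.03 and -0.10 and with 0.701%, 1.56% and 10.2% at least 20% lower. Those of them with coding sequences under 600 bases, nearer in length to the members, had medians of 0.03, -0.02 and -0.09. Of these short genes 1.41%, 4.77% and 14.9% were at least 20% lower. In each range the members' median was below that of the other genes, which were not matched to the members in level. Whether GC content or its handling in the libraries has a part in the members' ratios was not tested.

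**Figure D3:**
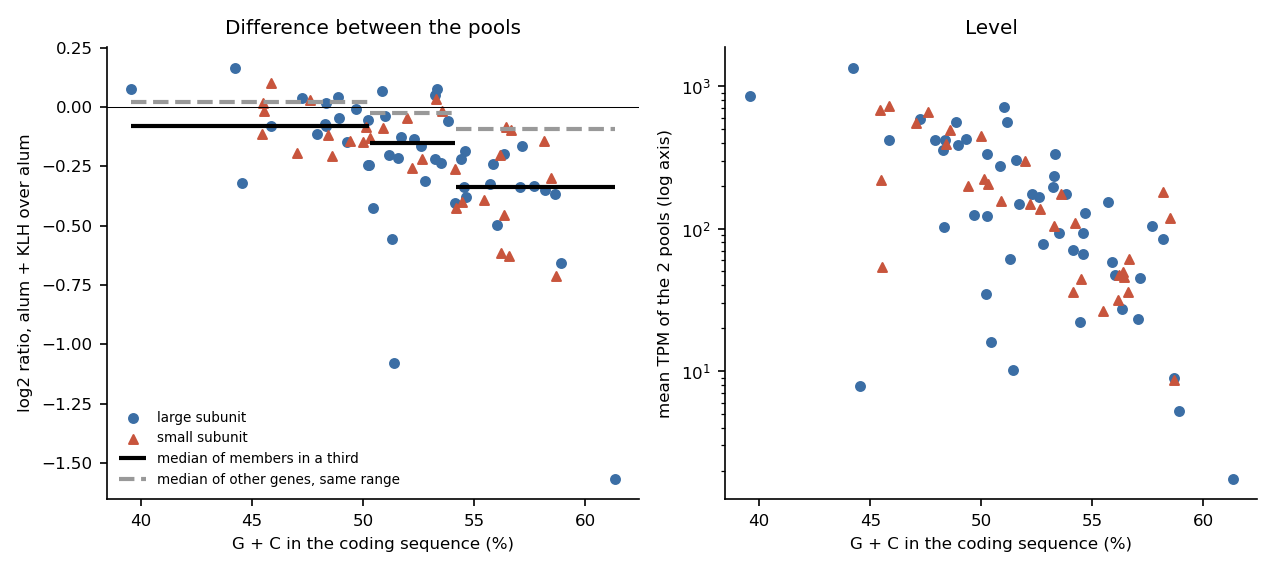
Log2 ratio of alum + KLH over alum (left) and mean TPM of both pools on a log axis (right) against the GC content of the coding sequence (%), for 79 ribosomal protein genes above 3 TPM, Rps27 being left out, with circles for the large and triangles for the small subunit. Points fall from left to right in both panels; the black bars, medians of the members in each tertile of GC content, lie at -0.08, -0.15 and -0.34, each below the dashed grey bar of other genes in the same range.

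Members with and without a pyrimidine run, which could lie before the start, had similar medians. The 30 detected genes with a run of at least 8 had a median log2 ratio of -0.16 and a median level of 141 TPM, and the 30 without one had -0.14 and 142 TPM. At least 20% lower were 10 of the former and 6 of the latter, beside 5.39% of all genes above 3 TPM, and whether these counts differ was not tested. The run length and the ratio had a Spearman correlation of -0.13 across the 60 genes.

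Many members have processed copies elsewhere in the genome, and a read from a shared stretch can be assigned to either where both are in the annotation used. The share of words of 31 bases that also occur in an annotated transcript of another gene had a median of 62.7% over the members, and was at least 50% in 55 of them and under 10% in 7. Words were counted on either strand and in any other gene, so this share is not limited to processed copies. Rps25, for example, shares 34.6% of its words with Trappc4. Counting only genes with a row in the data, the share was at least 50% in 7 members. Where a copy has a row, the values of member and copy have to be read together, and the split between them is uncertain.

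Rps27, a zinc-finger protein of the small subunit, was the clearest case. It was at 1.96 TPM in the alum pool and 108 TPM in the alum + KLH pool, a log2 ratio of 5.20, the widest of all members. Its copy Rps27rt was at 433 and 319 TPM, and the sum of both was 435 and 426 TPM, a ratio of -0.03. Of the words of Rps27, 98.7% are in Rps27rt. Rps27 lies on chromosome 3 (90212667 to 90213648 of GRCm38) and Rps27rt on chromosome 9 (114982366 to 114982739), and their coding sequences of 255 bases have 0 differences. The sequence is shown once because both genes have it in full, in lower case and in the coding sense.
Rps27 and Rps27rt: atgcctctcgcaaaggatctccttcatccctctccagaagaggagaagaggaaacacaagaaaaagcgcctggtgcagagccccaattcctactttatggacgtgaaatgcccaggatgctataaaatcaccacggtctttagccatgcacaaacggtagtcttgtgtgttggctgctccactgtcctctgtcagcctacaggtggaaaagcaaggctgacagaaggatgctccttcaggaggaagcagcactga

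For Rpl30, the low value was also matched by a high copy. Rpl30 was at 8.76 and 6.81 TPM while Gm12191, which holds 53.1% of its words, was at 752 and 743 TPM, and their sum was 761 and 750 TPM with a ratio of -0.02. Rpl26 was at 18.5 and 13.5 TPM beside Gm15772 at 203 and 192 TPM, and its own ratio of -0.42 became -0.11 in the sum. Rpl34 and Rpl34-ps1 (167 and 130 TPM) were both lower in the alum + KLH pool, with a ratio of -0.41 for the sum of 181 and 136 TPM. Rpl14 at 177 and 158 TPM and Rpl14-ps1 at 269 and 204 TPM were lower together as well, with -0.30 for the sum. Rpl22l1 had little on its copy Gm15421, at 2.03 and 1.77 TPM. With members and such copies summed, 20 of 80 were at least 20% lower, 0 were that much higher, and the median ratio was -0.16.

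**Figure D4:**
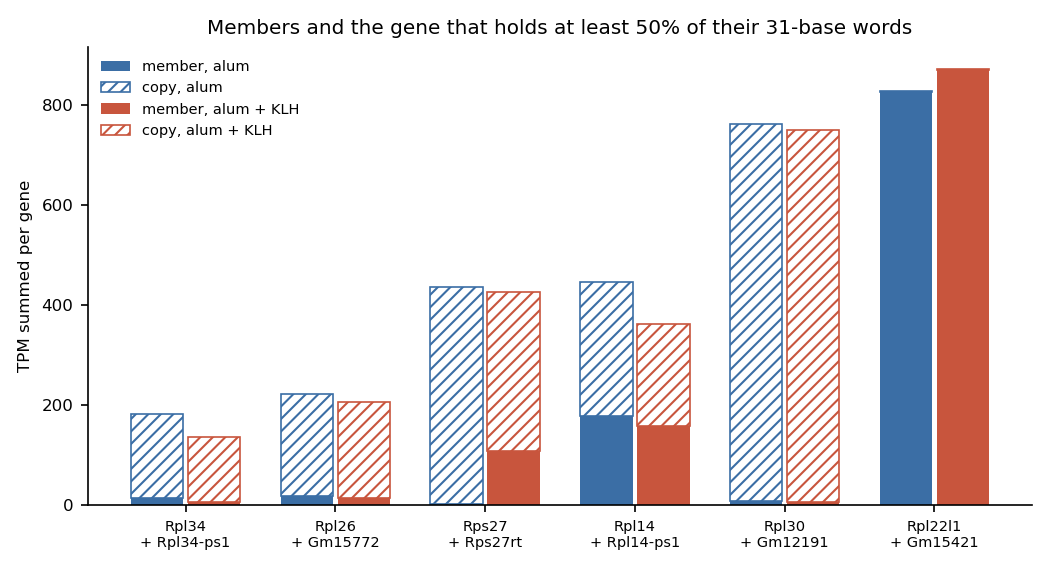
TPM summed per gene (vertical axis, from 0) of 6 members (filled) and of the gene that holds at least 50% of their words (hatched), stacked, in the alum pool (blue) and the alum + KLH pool (red). For Rps27 and Rps27rt the filled part changes from 1.96 to 108 TPM while the stack stays at 435 and 426 TPM, and for Rpl30 nearly the whole stack is the copy.

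Among the 11 members with several transcripts, the mix of transcripts was mostly alike in both pools. Rps24 kept NM_207635 as its main transcript, at 579 TPM (81.2% of the gene) in the alum pool and 506 TPM (76.7%) in the alum + KLH pool. Its second, NM_011297, was at 133 TPM (18.6%) and 151 TPM (23.0%), so that it was higher while the gene total was lower. In Rpl22, NM_009079 held 67.7% and 69.3%. Rpl34 moved more at a low level, with NM_001005859 at 92.7% and 85.3% of the gene. In Rpl30, NM_009083 held 85.2% and 82.5%. The largest change was in Rps27, where NM_027015 was at 1.02 TPM (52.1%) and 106 TPM (99.0%) and the noncoding NR_033727 stayed at 0.941 and 1.10 TPM.

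Some ribosomal proteins have symbols outside the family's pattern. Gnb2l1, which encodes the small-subunit scaffold Rack1, was at 43.7 TPM in the alum pool and 35.6 TPM in the alum + KLH pool. Fau, a ubiquitin-like protein fused to Rps30, was at 41.5 and 29.9 TPM with a log2 ratio of -0.46. This ratio was 0.47 on its highest transcript alone, because NM_001160239 was at 21.3 TPM in the alum pool and near 0 in the other while NM_007990 was at 20.2 and 28.4 TPM. Rpl36al was at 151 and 126 TPM.

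Other gene lists of translation were set beside the family, with background shares as above. Of 11 elongation genes 9 were lower and 1, Eef1a2, the elongation factor form of neurons and muscle, was at least 20% lower at 65.1 and 50.7 TPM. Eef1a1, which brings aminoacyl-tRNA to the ribosome, was at 2165 and 1968 TPM, and Tpt1 was at 3367 and 3366 TPM. Of 38 initiation genes 29 were lower and 4 were at least 20% lower, namely Eif3j1 at 29.1 and 15.5 TPM, Eif3d at 22.5 and 15.9 TPM, Eif3k at 25.4 and 19.2 TPM and Eif2b4, a subunit of the guanine exchange factor of initiation, at 7.19 and 5.23 TPM. Eif4a2, an RNA helicase of initiation and the highest of the list, was at 2479 and 2547 TPM, followed by Eif4g2 at 833 and 823 TPM.

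Of 17 detected genes linking mTOR signalling to ribosomal protein mRNA 10 were lower and 1, Rps6kb2, was at least 20% lower at 3.66 and 2.65 TPM. Rheb, the activator of mTOR complex 1, was at 531 and 549 TPM and Cnbp at 458 and 517 TPM. Of 37 ribosome assembly genes 27 were lower and 0 were past the limit in either direction, with Npm1 at 637 and 641 TPM and Ipo7 at 262 and 257 TPM. Of 16 genes of RNA polymerase I and its regulators 11 were lower, and Myc at 21.4 and 15.4 TPM and Polr1c at 4.87 and 3.39 TPM were at least 20% lower, while Rrn3, which brings the polymerase to rDNA, was at 128 and 137 TPM and Taf1d at 83.0 and 79.3 TPM. Of 15 ribosome quality control genes 9 were lower and 1, Pelo, was at least 20% lower at 4.68 and 3.48 TPM, and Abce1, which splits ribosomes, was at 256 and 259 TPM and Tcf25 at 157 and 144 TPM.

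The mitochondrial ribosomal proteins, which build a separate ribosome for mitochondrial mRNA, numbered 77, of which 75 were above 3 TPM. Their median was 39.1 TPM in the alum pool and 39.5 TPM in the alum + KLH pool, below the 146 and 125 TPM of the cytosolic family. Of the 75, 47 were lower and 5 (Mrpl23, Mrpl34, Mrpl53, Mrps34 and Mrps7) were at least 20% lower, among them Mrps34 at 7.15 and 4.53 TPM, Mrpl34 at 13.2 and 8.98 TPM, Mrps7 at 14.5 and 10.2 TPM and Mrpl53 at 74.9 and 57.6 TPM. The highest were Mrps18c at 233 and 236 TPM and Mrps33 at 190 and 176 TPM. The median log2 ratios were -0.10 for elongation, -0.07 for initiation, -0.08 for the mTOR list, -0.05 for assembly, -0.05 for RNA polymerase I, -0.06 for quality control and -0.04 for the mitochondrial family, beside -0.18 for the cytosolic ribosomal proteins. No gene of these lists above 3 TPM was at least 25% higher, and whether the lists differ was not tested.

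**Figure D5:**
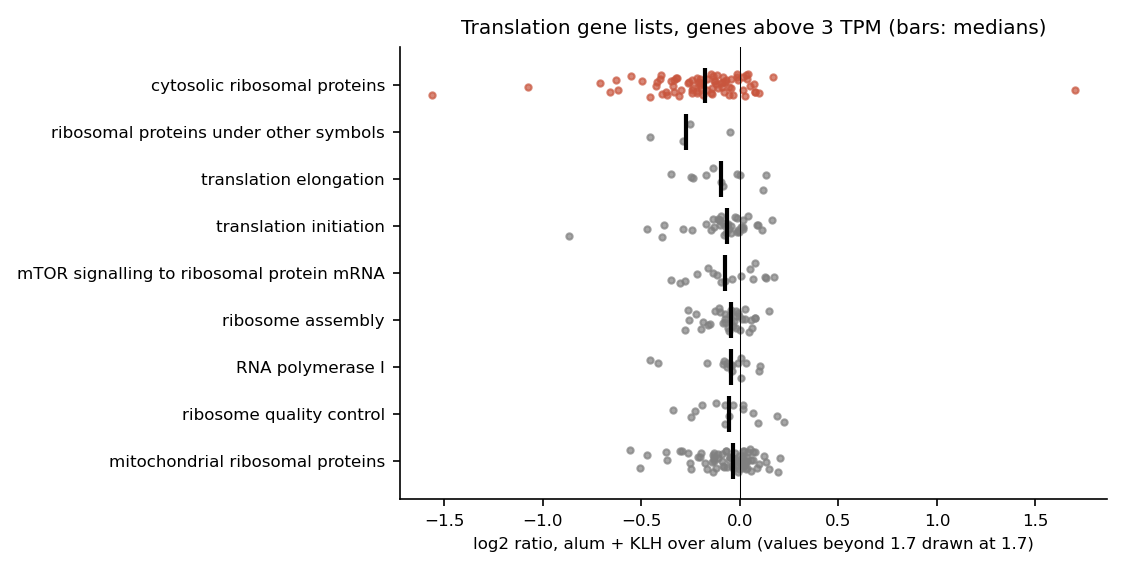
Log2 ratio of alum + KLH over alum (horizontal axis) of each gene above 3 TPM in the cytosolic ribosomal protein family (red) and in 8 other translation gene lists (grey), with a black bar at each list's median; vertical scatter within a row has no meaning. The bar of the cytosolic family is at -0.18, and the bars of the 7 larger lists lie between -0.10 and -0.04.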

How the data were processed

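The authors trimmed paired-end reads of 2 stranded mRNA libraries with cutadapt, quantified them with kallisto on the annotated mouse transcriptome (mm10) and deposited TPM per RefSeq transcript, each library scaled to 1000000. No read counts were used, so precision cannot be computed from depth. kallisto's division of reads among near-identical transcripts is part of the values.

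TPM was summed per symbol, a pseudocount of 1 TPM was added and log2 ratios were described without a test, beside all genes above 3 TPM. Coding features and words of 31 bases came from GENCODE M21, to which 33283 of 35034 rows matched. Promoters and gene coordinates came from RefSeq (GRCm38.p6, the assembly of mm10). Calculations used Python 3.11.15, numpy 2.4.6 and pandas 2.3.3, and were tested on simulated data.

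Named genes were the 5 highest and 5 lowest members, the stalk proteins and Rpsa, the 5 largest and 5 smallest ratios above 10 TPM in at least one pool, the paralogues with their parents, the 5 largest changes in transcript share, and of each other list the 2 highest and up to 4 past the limit used for larger differences. Members, lists and rules were chosen with earlier results of these data known. Alternatives covered pseudocount, filter, scaling, transcript choice, fold size and copies. A result for 1 gene of the other lists is not reported here.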

Additional observations from a re-analysis of the deposited data

How the results depend on the processing

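No paired analysis was possible because each group has 1 library, and none could be left out. Only a minimum read depth for each sample is given in the study's methods. The reads behind each value are unknown, so no limit from depth can be given for a gene. The median log2 ratio of the cytosolic ribosomal protein genes stayed negative in all alternatives run, from -0.34 in the tertile with the highest coding GC content to -0.08 in the tertile with the lowest and in the 5 detected genes with under 10% shared words. The count of members at least 20% lower, 21 as reported, was 4 among genes above 100 TPM and 2 at a 2-fold limit, as fewer genes or larger differences were asked for. It was 17 to 29 under the scalings, for which the share of all genes was not computed. The count of higher members, 1 as reported, was 0 with copies summed and 0 without members that share words with other rows. Both of these and the GC tertiles were chosen after seeing the data. Above 100 TPM the median of the large subunit was -0.080, that of the mTOR list 0.091 and that of RNA polymerase I genes 0.10. On the highest transcript of each gene the ribosomal proteins under other symbols had a median of -0.15 in place of -0.27, and Fau reversed to 0.47. Of the summary values 137 moved by less than 0.1 on the log2 scale or 1.5 times in count and 9 moved by more. The log2 ratio of Rpl36 was -2.71 with a pseudocount of 0.1 TPM.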
